A study of Rattus norvegicus with 7 samples.

Results

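The miR-15/16 family is a group of small RNAs that share the short sequence by which a miRNA finds its target mRNAs. Members were chosen by name, with no use of measured values: rno-miR-15b, rno-miR-16, rno-miR-195, rno-miR-322, rno-miR-497 and rno-miR-503 in the scanner output, without the star forms that come from the opposite arm of each hairpin. They are 6 of the 677 rat miRNAs on the array. Pancreatic islets, the clusters of hormone-secreting cells that hold the insulin-producing beta cells, had been isolated by collagenase digestion from male Wistar rats. The 12-month-old group holds 4 rats (replicates 2, 4, 10 and 16) and the 3-month-old group 3 rats (replicates 9, 11 and 13). The labels give no treatment, transgene or deletion for either group. Each rat has 1 single-colour Agilent miRNA array, and the comparison asks which miRNAs differ in islets between the ages.

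miRNAs pair with sites in mRNAs and lower the stability and translation of those mRNAs. The miR-15/16 family is known for repressing cyclins and cyclin-dependent kinases that carry a cell from the G1 phase into DNA synthesis, and for repressing the survival factor BCL2. In the postnatal heart, miR-195 and its relatives are known for rising as cardiomyocytes leave the cell cycle. Adult beta cells divide seldom, and less so with age.

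The sequences are shown because the family is defined by them and because the means of members with the same seed ran opposite ways between the ages. They are the mature forms from RefSeq (GRCr8), written 5′ to 3′, and the capitals mark the seed, bases 2 to 8.
miR-15b: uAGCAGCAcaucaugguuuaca
miR-16: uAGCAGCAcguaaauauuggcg
miR-195: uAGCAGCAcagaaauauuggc
miR-497: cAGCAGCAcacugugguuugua
miR-322: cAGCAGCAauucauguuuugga
miR-503: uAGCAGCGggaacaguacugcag
All but miR-503 carry the seed AGCAGCA, and these 5 are the only ones among the 693 mature rat miRNAs of the RefSeq table that do (0.722%). The seed of miR-503, AGCAGCG, differs in its last base. Outside the seed the members part. Compared without gaps from the 5′ end, miR-16 and miR-195 shared 19 of 21 bases, and miR-15b and miR-16 shared 14 of 22. miR-195 and miR-497 shared 12 of 21, and the least alike, miR-497 and miR-503, shared 10 of 22. How far the probes of miR-16 and miR-195 tell these targets apart was not tested.

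The genes lie in 3 pairs of neighbours. miR-15b (chr2:155555197-155555218, + strand) and miR-16 (chr2:155555343-155555364, + strand) lie next to each other within Smc4, a protein-coding gene for a condensin subunit that packs chromosomes for mitosis. miR-497 (chr10:55450172-55450193, + strand) and miR-195 (chr10:55450509-55450529, + strand) are adjacent, with no other gene between them. miR-503 (chrX:137725899-137725921, - strand) and miR-322 (chrX:137726198-137726219, - strand) lie inside a long non-coding RNA gene that also holds miR-351, with miR-542 and miR-450a nearby. These positions are those of GRCr8. An older rat assembly stands in the header of the arrays, and no coordinate enters the array values.

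The software called 246 to 296 miRNAs detected per array, and before normalization the median log2 difference of the tested miRNAs was 0.79, brighter at 12 months. Quantile normalization brought it to 0.056. Of the 6 members, 5 were detected on all 7 arrays, as were 238 of all 677 miRNAs. miR-503 was detected on none, as were 370 of the 677. The test took miRNAs that all arrays of either age had detected, which were 272 with 5 members among them. The endocrine miRNAs miR-375 and miR-7a were detected on every array, with normalized log2 signals of 13.32 to 13.92 and 14.51 to 14.81. Whole islets hold several cell types, so in these bulk samples fewer cells of a type and less RNA per cell cannot be told apart.

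No tested member passed an adjusted p of 0.05 (limma's moderated test, Benjamini-Hochberg over all 272 miRNAs), a level that 4 of the 272 reached (1.47%). At an unadjusted p below 0.05 there were 2 of the 5, miR-15b and miR-16, both with the lower mean at 12 months. Of all tested miRNAs, 21.7% had such a p, 12.5% with the lower and 9.19% with the higher mean at 12 months. The neighbouring pair miR-195 and miR-497 had the higher mean at 12 months, and miR-322 had a difference near 0. The median difference of the 5 members was -0.032 on the log2 scale, beside 0.056 over all tested miRNAs, with 2 members higher and 3 lower beside 157 higher and 115 lower.

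miR-15b had normalized log2 signals of 8.70, 8.65, 8.97 and 9.01 in the 12-month-old rats (replicates 2, 4, 10 and 16). In the 3-month-old rats (replicates 9, 11 and 13) they were 9.25, 9.51 and 10.11. The ages did not overlap. This held for 1 of the 5 members and for 17.3% of the tested miRNAs, 9.56% lower and 7.72% higher at 12 months. The means were 8.83 ± 0.18 (SD, n = 4) and 9.62 ± 0.44 (SD, n = 3), a difference of -0.79 with a standard error of 0.22 and a 95% interval from -1.31 to -0.27, or 1.73-fold lower at 12 months. The moderated test of limma gave p = 0.0078 and an adjusted p of 0.0758 for miR-15b, and the two-sided exact permutation test over 35 splits of the rats gave p = 0.0286, the smallest that 4 rats against 3 allow. Replicate 13 at 3 months had the highest value, and without it the difference was -0.53.

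miR-16 had normalized log2 signals of 11.35, 11.22, 11.17 and 11.55 at 12 months and 11.70, 11.55 and 11.85 at 3 months. Replicate 16 at 12 months and replicate 11 at 3 months met at 11.55, and the other older rats lay below all the younger ones. The means were 11.32 ± 0.17 (SD, n = 4) and 11.70 ± 0.15 (SD, n = 3). The difference in miR-16 was -0.38 with a standard error of 0.16 and a 95% interval from -0.74 to -0.020 (limma, p = 0.041, adjusted p = 0.199), and the exact permutation p was 0.0857.

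**Figure D1:**
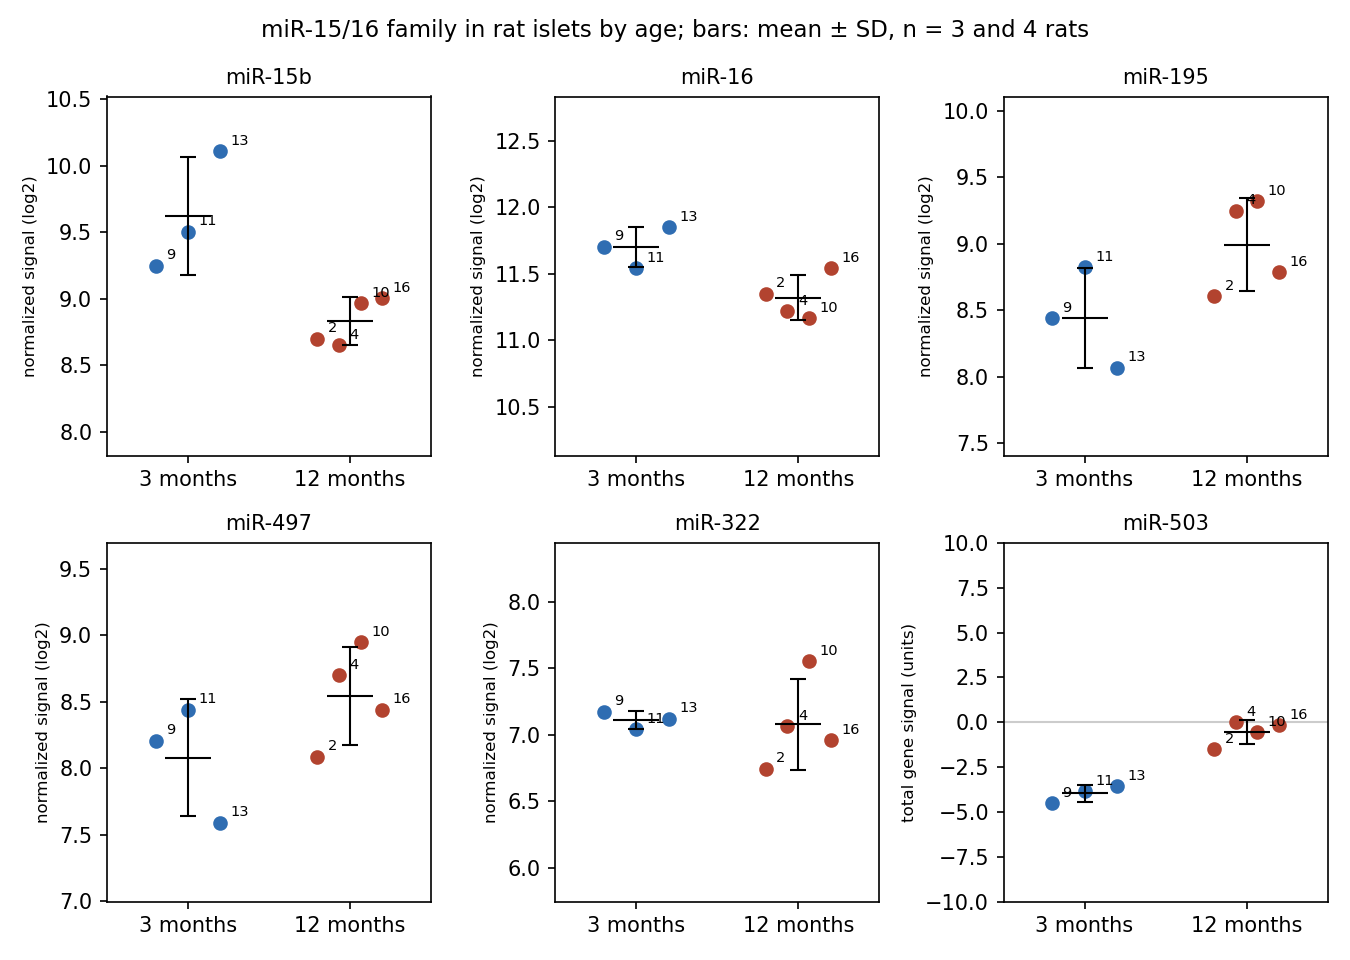
Normalized log2 signal of the 5 tested members and background-subtracted signal of miR-503 in units, 1 panel a member, with 1 point a rat, marked by its replicate number, and the horizontal bars at the mean ± SD of each age. In miR-15b all 12-month-old rats lie below all 3-month-old rats, miR-195 and miR-497 show the opposite order of means with overlap, and miR-503 stays near 0 on every array.

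miR-195 and miR-497 ran the other way in their means. miR-195 had normalized log2 signals of 8.61, 9.25, 9.32 and 8.79 at 12 months and 8.44, 8.82 and 8.07 at 3 months. The ages overlapped, because replicate 11 at 3 months lay above replicates 2 and 16 at 12 months. The difference in miR-195 was 0.55 with a standard error of 0.25 and a 95% interval from -0.025 to 1.12 (limma, p = 0.0586, adjusted p = 0.252; exact permutation p = 0.143). miR-497 had 8.09, 8.70, 8.95 and 8.44 at 12 months and 8.21, 8.44 and 7.59 at 3 months. Replicates 4 and 10 at 12 months were the highest rats for both miRNAs and replicate 13 at 3 months the lowest. The difference in miR-497 was 0.46 with a standard error of 0.27 and a 95% interval from -0.16 to 1.08 (limma, p = 0.122, adjusted p = 0.396; exact permutation p = 0.229). Without replicate 13 at 3 months the differences were 0.34 for miR-195 and 0.21 for miR-497.

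miR-322, the rat counterpart of human miR-424, had normalized log2 signals of 6.74, 7.07, 7.55 and 6.96 at 12 months and 7.17, 7.04 and 7.12 at 3 months. The 3-month-old rats all lay within the range of the older ones. The difference was -0.032 with a standard error of 0.20 and a 95% interval from -0.50 to 0.43 (limma, p = 0.879, adjusted p = 0.953; exact permutation p = 0.886), and its sign turned with the scaling between arrays, to 0.027 with the 75th percentile of the miRNAs detected on all arrays, 0.12 with that of all rat miRNAs and 0.75 without normalization. The interval leaves room for a change of either sign.

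miR-503 had background-subtracted signals of -1.49, 0.0034, -0.535 and -0.142 units at 12 months and -4.48, -3.85 and -3.54 units at 3 months, with a software error of 2.73 to 3.39 units on each value. On this scale before normalization the older rats all lay above the younger ones, as they did in 48.2% of the tested miRNAs. No value of miR-503 reached the lowest detected signal of an array (1.42 to 4.92 units), and all its normalized log2 values were 0. With no detection call on any array, no fold is given. Of the other miRNAs near this gene pair, miR-351 and miR-542-5p were detected on no array. For miR-542-3p the software made a detection call on 3 of the 4 older and none of the 3 younger rats. Its signals were 5.88, 8.22, 9.97 and 10.68 units at 12 months against 3.76, 3.59 and 3.52 units. After quantile normalization the mean of miR-542-3p was 1.51-fold higher at 12 months. The ages were not separate on that scale, where replicate 4 at 12 months and replicate 9 at 3 months met at 2.52 (log2). miR-542-3p missed the filter and was not tested. miR-450a was detected on every array, with normalized log2 signals of 4.11, 4.34, 4.66 and 4.16 at 12 months and 3.92, 4.08 and 3.76 at 3 months. These did not overlap, and the difference of 0.40 with a standard error of 0.18 did not pass (limma, p = 0.0543, adjusted p = 0.243; exact permutation p = 0.0571).

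The star forms of the 6 members, from the opposite arm of each hairpin, were all on the array and none was detected on any array. The star form of miR-16, aCCAAUAUuauugugcugcuu, had background-subtracted signals of -0.253 to 2.39 units over the 7 rats. Its seed differs from that of the guide strand, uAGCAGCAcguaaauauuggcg, which was detected in every rat.

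**Figure D2:**
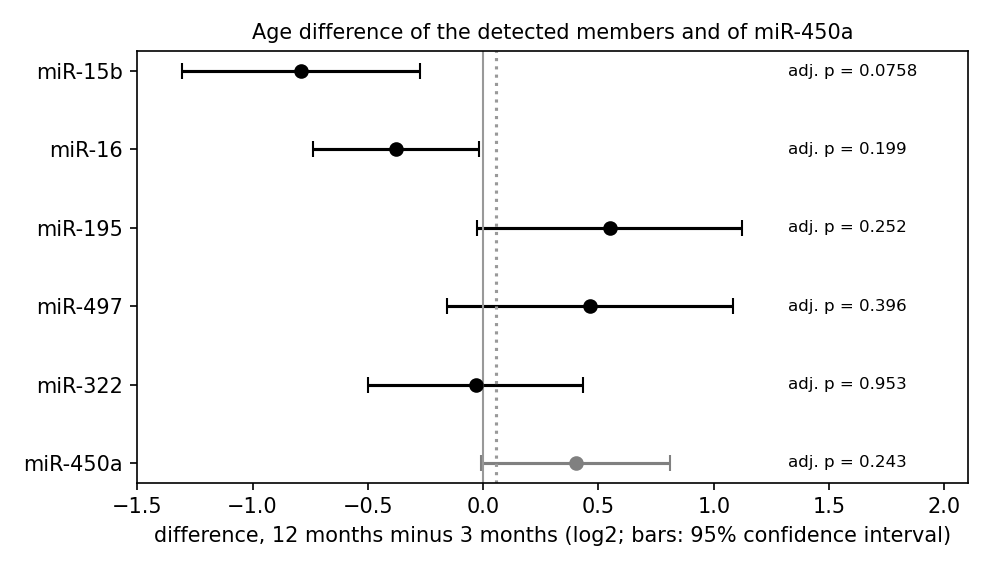
Difference in mean normalized log2 signal, 12 minus 3 months, of the 5 tested members and miR-450a (grey) with its 95% interval and adjusted p from limma (4 and 3 rats), and a dotted line at the median of all tested miRNAs (0.056). The intervals of miR-15b (-1.31 to -0.27) and miR-16 (-0.74 to -0.020) lie below 0, and those of miR-195, miR-497, miR-322 and miR-450a hold 0.

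The scaling between arrays bears on the sign of some of these differences. Before normalization, the total gene signal of miR-15b was 568, 533, 521 and 691 units at 12 months and 434, 648 and 638 units at 3 months, with means of 578 ± 77.7 (SD, n = 4) and 573 ± 121 (SD, n = 3). miR-195 had 495, 742, 649 and 582 units at 12 months against 249, 436 and 156 units, with means of 617 ± 104 (SD, n = 4) and 280 ± 142 (SD, n = 3). miR-497 had 385, 560, 516 and 427 units against 217, 324 and 119 units, and miR-322 had 127, 185, 194 and 166 units against 102, 115 and 81.7 units. The ages did not overlap in these last 3 members before normalization, each higher at 12 months, as in 48.2% of all tested miRNAs (48.5% in either direction). Without normalization the log2 differences were 0.027 for miR-15b, 0.31 for miR-16, 1.25 for miR-195, 1.20 for miR-497 and 0.75 for miR-322. Taken relative to the median of all tested miRNAs on that scale (0.79), they were -0.77, -0.48, 0.46, 0.41 and -0.042. Those for miR-15b and miR-16 thus turn sign with the scaling. Their order, with miR-15b lowest and miR-195 highest, held under every scaling between arrays that was run.

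The log2 ratio of 2 members before normalization does not change when all signals of an array are multiplied by 1 factor. Quantile normalization, which is no single factor, does change it. Probes differ in brightness, so only its change between rats can be read. The ratio of miR-15b to miR-195 was 0.20, -0.48, -0.32 and 0.25 at 12 months and 0.80, 0.57 and 2.03 at 3 months. Every older rat lay below every younger rat, by 1.22 in the mean (2.33-fold). The ratios of miR-15b to miR-497, miR-16 to miR-195 and miR-16 to miR-497 had no overlap either, with mean differences of -1.17, -0.94 and -0.89. Among the 10 pairs of detected members these 4 did not overlap. They share members and are not 4 separate observations, and 20.4% of all 28203 pairs of miRNAs detected on every array did not overlap either. After quantile normalization 3 of the 10 pairs did not overlap, beside 20.2% of all pairs. These were miR-15b to miR-195 with a mean difference of -1.34, miR-15b to miR-497 with -1.25 and miR-15b to miR-322 with -0.76. The ratios of miR-16 to miR-195 (-0.93) and to miR-497 (-0.84) overlapped on that scale, so their separation rests on the values before normalization.

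The younger rats' ratios were widened by replicate 13. Without it the 4 mean differences were -0.77, -0.70, -0.63 and -0.55. In row 1 of the slide (2 older rats and 1 younger) the difference for miR-15b to miR-195 was -0.94, and in row 2 (2 older and 2 younger) it was -1.34. Taking each probe of one against each probe of the other gave -1.28 to -1.17. Within the gene pairs the ratios moved less than these 4 ratios between pairs. miR-195 to miR-497 had a mean difference of 0.047 and a range of 0.25 over all 7 rats, beside a median range of 1.24 over all pairs. miR-15b to miR-16 had a mean difference of -0.28 with overlap and a range of 0.66. The median absolute difference over all pairs was 0.31, so this pair differed about as much as most.

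**Figure D3:**
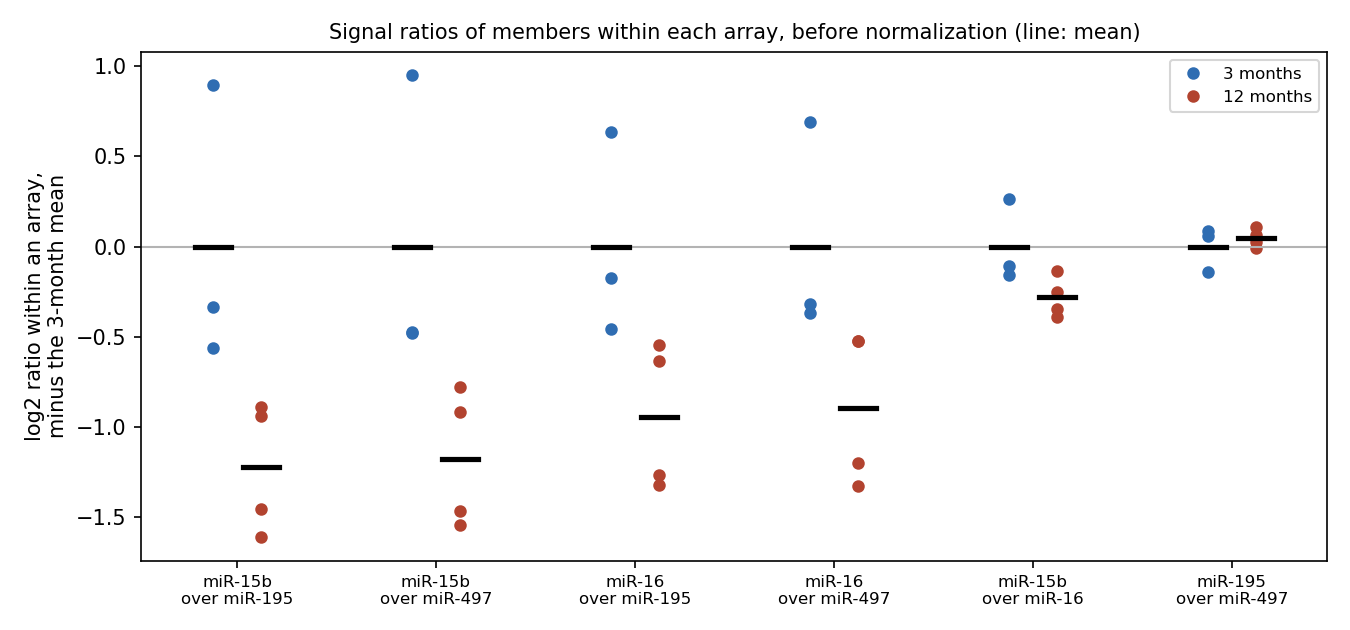
Within-array log2 ratio before normalization of 6 of the 10 pairs of detected members (those without miR-322) minus the mean of that ratio in the 3-month-old rats, with 1 point a rat and short bars at the mean of each age. The 4 ratios of miR-15b or miR-16 to miR-195 or miR-497 separate the ages by 0.89 to 1.22 in the mean, and miR-195 to miR-497 stays within a range of 0.25.

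Over the 7 rats, miR-195 and miR-497 had nearly the same profile. The root mean square difference of their mean-centred log2 profiles was 0.10, and miR-497 was the nearest of all tested miRNAs to miR-195. miR-15b and miR-16 stood 0.31 apart, with miR-16 only the 25th nearest to miR-15b, and miR-15b and miR-195 stood 0.81 apart. Among the other miRNAs, miR-15b was nearest to miR-19a (0.15), miR-219-5p (0.18) and miR-20b-5p (0.19), against a median of 0.58 to all tested miRNAs. miR-16 was nearest to miR-25 (0.11), miR-667 (0.12) and miR-93 (0.12), with a median of 0.35. miR-195 was nearest to miR-130a (0.15), miR-10a-5p (0.17) and miR-450a (0.18), with a median of 0.51, and the same 3 were nearest to miR-497 at 0.19 to 0.21. miR-322 was nearest to miR-29b (0.15), miR-3573-3p (0.17) and miR-27a (0.18), with a median of 0.41. These values describe 7 arrays and carry no test.

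miRNAs known to mark other cells of the pancreas moved over the same rats. All 5 mesenchymal miRNAs (miR-143, miR-145, miR-199a-3p, miR-199a-5p and miR-214), which mark fibroblasts and muscle-like cells, had the higher mean at 12 months, by a median of 1.16. Of these, 4 had an unadjusted p below 0.05 and none an adjusted one. Among all tested miRNAs, 9.19% had such a p with the higher mean at 12 months, and 7.72% were higher without overlap. Their mean normalized log2 signal was 7.48 ± 0.37 (SD, n = 4) against 6.46 ± 0.47 (SD, n = 3), and their summed level was 1912 to 2801 units at 12 months and 1216 to 1918 units at 3 months. Summed levels, here and for the other marker lists, are sums of quantile-normalized signals taken back to the linear scale. The mean mesenchymal profile stood 0.26 from miR-195, 0.28 from miR-497, 1.05 from miR-15b and 0.83 from miR-16. Leukocyte and endothelial miRNAs were as near to miR-195 and miR-497. The mean leukocyte profile stood 0.24 and 0.28 from them, and the mean endothelial profile 0.27 and 0.28. The mean profile of the endocrine miRNAs (miR-375, miR-7a and miR-7b) stood nearest to miR-16, at 0.11. It was 0.40 from miR-15b, 0.31 from miR-322, 0.55 from miR-195 and 0.54 from miR-497. Of the 5 members miR-16 also had the smallest median distance to all tested miRNAs (0.35), and these distances are not scaled for spread. miR-322 stood 0.60 from the mesenchymal, 0.43 from the leukocyte and 0.31 from the endothelial mean. The ages did not overlap in miR-199a-5p, with a difference of 1.39 and a standard error of 0.33 (limma, adjusted p = 0.0608), in miR-214, with 1.30 and 0.29 (limma, adjusted p = 0.0608), or in miR-199a-3p, with 1.16 and 0.35 (limma, adjusted p = 0.0817).

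**Figure D4:**
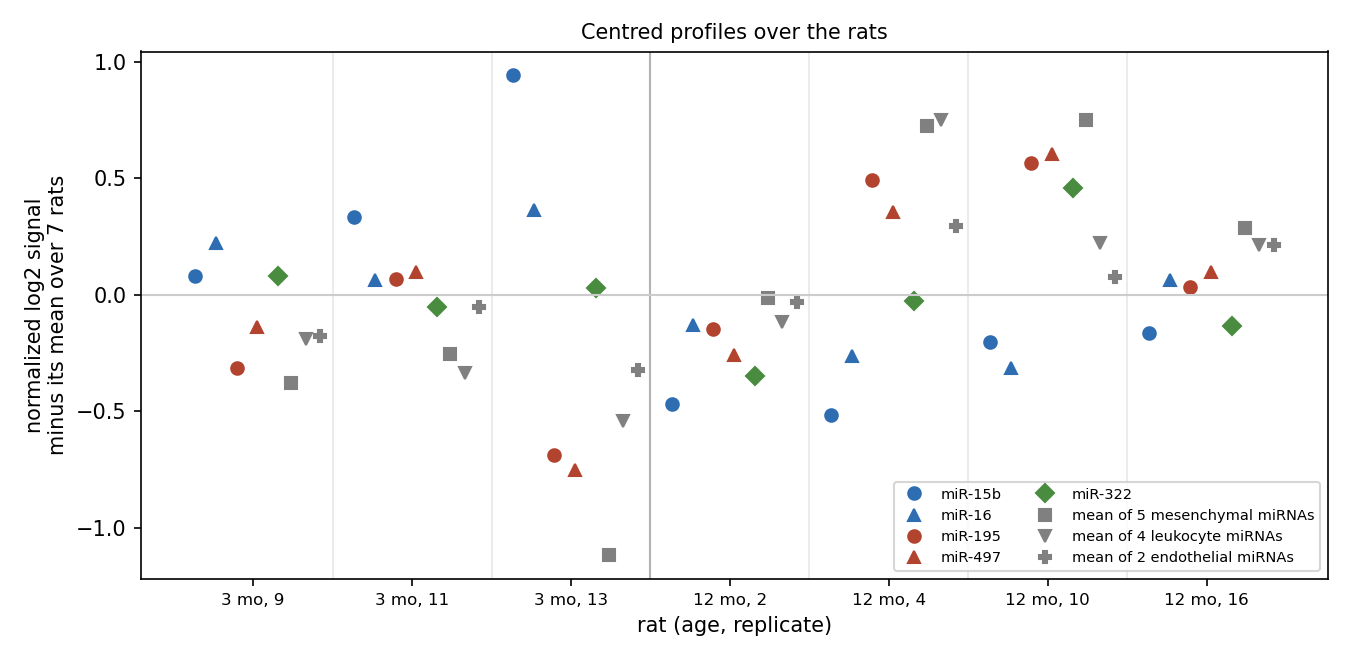
Normalized log2 signal of the 5 detected members and the means of the 5 mesenchymal, 4 leukocyte and 2 endothelial miRNAs (grey) in each rat, each minus its own mean over the 7 rats. miR-195, miR-497 and the mesenchymal mean are highest in replicates 4 and 10 at 12 months and lowest in replicate 13 at 3 months, where miR-15b is highest and the leukocyte and endothelial means are lowest too.

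The 3 acinar miRNAs (miR-217, miR-216a and miR-216b-5p), which mark the enzyme-secreting cells of the exocrine pancreas, had the lower mean at 12 months, with a median log2 difference of -2.11, 3 unadjusted p below 0.05 and no adjusted one. An unadjusted p below 0.05 with the lower mean at 12 months was found in 12.5% of all tested miRNAs. The acinar summed level ranged from 123 to 1376 units at 12 months and from 1211 to 2853 at 3 months. Of the 4 leukocyte miRNAs on the array, 3 were higher at 12 months and 1 lower, with a median of 0.62 and a summed level of 261 to 488 against 225 to 253 units. Of these 2 had an unadjusted p below 0.05 and no overlap, miR-142-5p with a difference of 1.31 (limma, adjusted p = 0.0769) and miR-142-3p with 0.91 (limma, adjusted p = 0.118). Both endothelial miRNAs, miR-126 and its star form, were higher in the mean, with a median of 0.32 and a summed level of 1623 to 2170 against 1702 to 1826 units. The star form of miR-126 had an unadjusted p below 0.05 and no overlap, with a difference of 0.58 (limma, adjusted p = 0.0783). Beside these leukocyte and endothelial counts, 9.19% of all tested miRNAs were higher at such a p and 7.72% were higher without overlap. Both erythroid miRNAs were lower, with a median of -0.52 and a summed level of 121 to 229 against 95.1 to 302 units. The 3 endocrine miRNAs had a median of -0.20 and a summed level of 34800 to 41852 against 41142 to 45625 units, with no unadjusted p below 0.05. The brightest of them, miR-7a, had the same normalized log2 value, 14.81, in all 3-month-old rats (SD of 0). Quantile normalization gives equal ranks equal values, so a difference in miR-7a could show only as a change of rank. Every marker on the array was called detected on at least 1 array. The part of these cell types in the values of the family was not tested.

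Other miRNAs known to act at the passage from G1 to DNA synthesis were set beside the family. Of 17 known to hold cells back there, among them let-7, miR-34 and miR-26, 15 were tested, with 7 higher and 8 lower at 12 months and a median of -0.0082. Of these 2 had an unadjusted p below 0.05, both higher, and 1 passed the adjusted test. Of all tested miRNAs, 9.19% had such a p with the higher mean at 12 months, and 1.47% passed the adjusted test. The 1 of this list that passed was miR-124, a miRNA best known from neurons, with an adjusted p of 0.00269 (limma). All 4 older rats and no younger rat had a detection call. The signals of miR-124 were 59.2, 14.7, 134 and 59.7 units at 12 months and -2.08, -0.998 and -1.70 units at 3 months. With the younger rats set to the lowest signal called detected for any miRNA on their arrays, the older mean was 19.7-fold higher. That signal is no detection limit for miR-124 itself, so the fold is not a lower bound.

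Of 13 miRNAs known to favour that passage, among them the miR-17-92 cluster, 11 were tested, with 2 higher and 9 lower at 12 months and a median of -0.30. At an unadjusted p below 0.05, 5 were lower and 1 higher, and none passed the adjusted test. Of all tested miRNAs, 12.5% were lower and 9.19% higher at that level, with 157 higher and 115 lower at any p. This list was chosen with earlier results of these data known, and its direction was not tested as a set. miR-19b, a member of that cluster, had 8.33, 8.44, 9.25 and 8.48 at 12 months and 9.32, 9.55 and 9.88 at 3 months, a difference of -0.96 with a standard error of 0.25 (limma, adjusted p = 0.07). miR-19a, the miRNA nearest in profile to miR-15b, differed by -0.82 with a standard error of 0.23 (limma, adjusted p = 0.0758). miR-221, which represses the cell-cycle inhibitor p27, ran the other way, with a difference of 0.40 and a standard error of 0.16 (limma, adjusted p = 0.19).

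Each detected member was read by 2 probes of 10 spots, and both gave the same sign of the difference before normalization. They gave 1.29 and 1.23 for miR-195, 1.23 and 1.19 for miR-497, 0.73 and 0.76 for miR-322, 0.29 and 0.31 for miR-16, and 0.059 and 0.011 for miR-15b. The median difference of all tested miRNAs on that scale was 0.79, so a shared positive sign says little. For miR-15b and miR-16 it was opposite to the sign after normalization. The software's own error was 7.44 to 8.60% of the signal of the detected members. The coefficient of variation between rats before normalization, which includes the brightness of the whole array, was 13.4 to 17.6% at 12 months and 16.8 to 50.8% at 3 months.

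**Figure D5:**
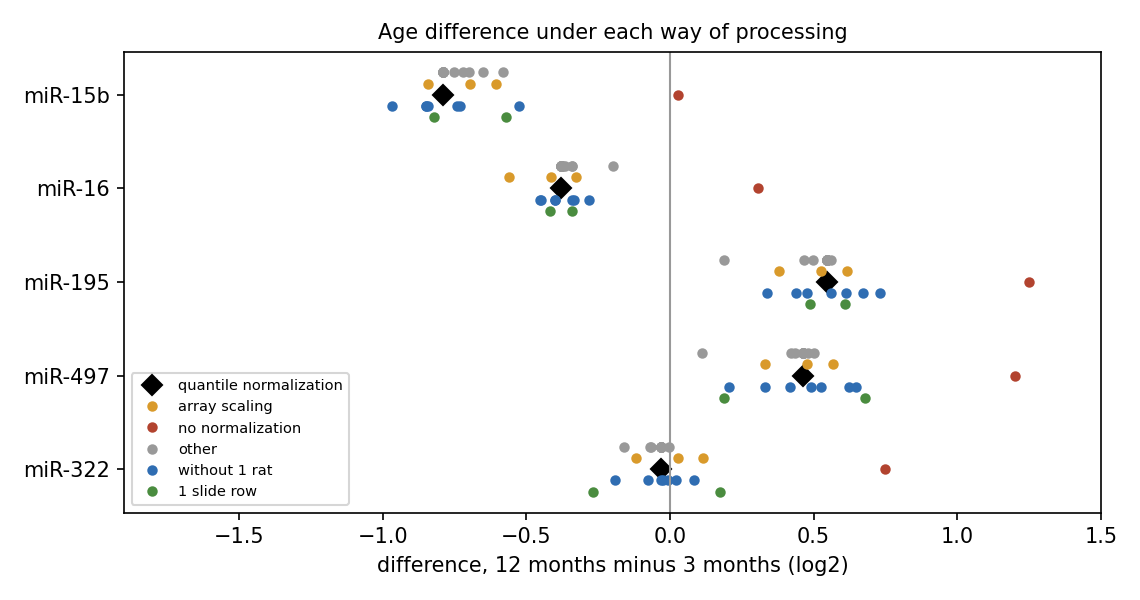
Log2 difference, 12 minus 3 months, of the 5 tested members under each processing alternative, with 1 point a setting, coloured by the kind of alternative, and a black diamond at the reported value. miR-15b stays below 0 except without normalization between arrays (0.027), miR-195 and miR-497 stay above 0, and miR-322 lies on both sides of 0.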

How the data were processed

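The authors extracted islet miRNA from the 7 rats, hybridised 1 single-colour array per rat and read spots with Agilent Feature Extraction (version 10.7.3.1, per the file headers). The deposited files hold background-subtracted intensity per miRNA on a linear scale, its detection call and software error, and a second table the authors deposited holds quantile-normalized log2 values. Ages came from the labels. The labels do not state whether rats shared a cage or litter.

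The total gene signal was set to at least 1, put on the log2 scale and quantile normalized over 677 rat miRNAs, with R 4.3.3 and limma 3.58.1. The 272 miRNAs that all arrays of either age had detected were tested with lmFit and eBayes (two-sided, Benjamini-Hochberg), and single miRNAs with an exact permutation test. The number of arrays limits the precision. Likeness is the root mean square difference of mean-centred profiles. Sequences and gene neighbours came from RefSeq tables (GRCr8), in which all 12 strands of the family were found.

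The members and lists were chosen with earlier results of these data known. Named miRNAs are the members, their star forms and cluster partners, the markers miR-7a and miR-375, the 3 nearest profiles per member, and, per list or marker list, those past the adjusted test or else up to 3 with the largest difference among those with an unadjusted p below 0.05 and no overlap. The code was tested on simulated data. Alternatives covered scaling, filter, floor, signal summary, background, variance model, array weights, slide row, the methods' t-test, the authors' deposited matrix and leaving out single rats. mRNA, qPCR and transfection experiments were not analysed here.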

Additional observations from a re-analysis of the deposited data

How the results depend on the processing

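Over 26 alternatives, miR-195 and miR-497 stayed above 0 in all, and miR-15b and miR-16 stayed below 0 in all but the one without normalization between arrays. The unadjusted p was below 0.05 in 23 of 24 alternatives with a p for miR-15b, 13 for miR-16, 6 for miR-195, 3 for miR-497 and 1 for miR-322. Adjusted p values ranged from 0.0392 to 0.932 for miR-15b, 0.118 to 0.559 for miR-16, 0.0168 to 0.747 for miR-195, 0.018 to 0.826 for miR-497 and 0.0321 to 1 for miR-322. Without normalization, which leaves the overall shift of 0.79 in every value, the differences were 0.027 for miR-15b, 0.31 for miR-16, 1.25 for miR-195 (adjusted p = 0.0168, limma), 1.20 for miR-497 (adjusted p = 0.018) and 0.75 for miR-322 (adjusted p = 0.0321). With array weights, miR-15b passed at -0.65 (limma, adjusted p = 0.0392), while the differences of miR-16, miR-195 and miR-497 shrank to -0.20, 0.19 and 0.11 and that of miR-322 was -0.16. miR-322 turned to 0.027 with the 75th percentile of the miRNAs detected on all arrays, 0.12 with that of all rat miRNAs, 0.085 without replicate 2 and 0.019 without replicate 16 at 12 months, and 0.17 in row 2 of the slide alone. The values by slide row and the ratios after normalization were chosen after seeing the data. The cause was not tested for these.

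The number of miRNAs with an adjusted p below 0.05, 4 as reported, was 20 with the 75th percentile of the miRNAs detected on all arrays, 9 with that of all rat miRNAs, 15 scaled to miR-7a, 171 without normalization, 1 among miRNAs detected on all 7 arrays, 2 with normexp, 48 with array weights, 8 with the deposited matrix and 0 with the exact permutation test, which had 34 at an unadjusted p below 0.05. The exact test cannot give a p below 0.0286 with 4 rats against 3. Its adjusted count of 0 over 272 miRNAs therefore says little about the processing. The number with an unadjusted p below 0.05, 59 as reported (25 higher, 34 lower), was 37 scaled to miR-7a (9 higher, 28 lower), 193 without normalization (189 higher, 4 lower) and 89 with array weights.

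With each rat left out in turn, the differences ranged from -0.97 to -0.53 for miR-15b, -0.45 to -0.28 for miR-16, 0.34 to 0.73 for miR-195, 0.21 to 0.65 for miR-497 and -0.19 to 0.085 for miR-322. The unadjusted count ranged from 41 to 88 and the adjusted count from 4 to 10, the latter without replicate 10 at 12 months. No paired analysis was possible because the 2 ages share no replicate numbers. miR-503 and the star forms had no detection call on any array, so no difference in them is given.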
